A study of Mus musculus with 4 samples.

Results

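The heat shock proteins and chaperonins of mouse platelets were the protein-coding genes whose names begin with Hspa to Hsph or with Dnaj, or are Cct2 to Cct8 or Tcp1. There were 73 such genes, of which 69 were listed in both deposited tables. The name pattern leaves out the Hsp90 genes, whose names go on with a digit, so the 3 of them were added. This gave 76 members of the 17995 genes listed in all. By family, 13 were Hsp70 genes, 3 were Hsp90 genes, 41 were Dnaj genes, 5 were small Hsp genes, 8 encoded subunits of the cytosolic chaperonin CCT, 2 encoded the mitochondrial chaperonin, and 4 carried a matching name without belonging to these families. Dnajb3, Hspb7 and Hspb8 were listed in the table of cKO and WT alone, and Dnajb8 in the table of Old and Young alone. A further 8 protein-coding genes of the mouse annotation match the pattern and were listed in neither table (Cct8l1, Dnajb7, Dnajc22, Dnajc5b, Dnajc5g, Hspa1l, Hspb2 and Hspb3). The CCT subunit gene Cct6a was annotated as a processed transcript in the tables and is given beside the members.

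The platelets came from 4 groups of male mice, with 1 library for each group and 7 mice pooled in each library. The library labelled cKO came from mice of 3 months with a conditional, platelet-specific knockout of HuR, an RNA-binding protein encoded by Elavl1, and the WT library from their wild-type littermates of the same age. The Old library came from wild-type mice of 24 months and the Young library from wild-type mice of 3 months. The sources used here do not give the Cre driver or the knockout allele. With 1 library per group no difference has a replicate check, and each interval below covers counting error only and not the spread between pools of mice.

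Heat shock proteins are chaperones, which hold or refold unfolded proteins. Hsp70 proteins bind short hydrophobic stretches in cycles of ATP hydrolysis, the J-domain (Dnaj) proteins deliver clients to them and start that hydrolysis, and the Hsp110 branch exchanges their nucleotide. Hsp90 acts later on kinases and receptors, small Hsps hold unfolded proteins without ATP, and CCT is a ring of different subunits that folds actin and tubulin, which are abundant in platelets. Platelets have no nucleus, so their messenger RNAs come from megakaryocytes and, in a preparation of platelets, from any other blood cells that it holds.

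Reads were recovered from the deposited scaled values, and the totals lay between 17702341 and 18472149 reads per library. The 12 platelet markers (among them Pf4, Ppbp and Itga2b) summed to 50380 RPM (reads relative to each library's total) in the library labelled cKO, 55130 in WT, 61800 in Old and 51200 in Young, and none was at 0. Markers of other blood cells differed between the libraries. The 11 listed erythroid markers summed to 16080 RPM in the library labelled cKO and 8258 in WT, and to 11230 in Old and 21520 in Young. The 12 neutrophil markers summed to 41.3 in the library labelled cKO (Lcn2 at 0) and 68.5 in WT, and to 841 in Old and 31.5 in Young, where Ltf, Camp and Il1r2 were at 0. The 10 B cell markers summed to 339 in the library labelled cKO and 355 in WT, and to 86.2 in Old and 295 in Young. The 10 monocyte and macrophage markers summed to 2319, 3401, 2561 and 3512 in the libraries labelled cKO, WT, Old and Young, with Cd14 at 0 in Young. That sum was lower in Old than in Young, but the median log2 ratio of the 8 markers with enough reads was 1.87. Of the 4 with 100 reads or more in Old or Young, 3 had a whole interval above 2-fold and 0 below it. Over all 6519 genes with as many reads, 4.26% lay above and 4.3% below. In the same order of libraries the 11 T and NK cell markers summed to 56.4, 57.4, 64.9 and 103. The 6 endothelial markers, some of which platelets share, summed to 8142, 6906, 10250 and 7849. The part of these cells in the values below was not tested, and in such bulk samples fewer cells of a type and less RNA per cell cannot be told apart. Elavl1, the gene targeted in the knockout, had 1481 reads in the library labelled cKO and 876 in WT, a ratio of 1.66 (1.53 to 1.81), so it was not lower there, and the library is called by its label throughout.

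The members were a small part of the platelet RNA. Together they took 0.171% of the reads in the library labelled cKO (95% Wilson interval 0.169% to 0.173%), 0.187% in WT (0.185% to 0.189%), 0.148% in Old (0.146% to 0.150%) and 0.173% in Young (0.172% to 0.175%). Old had the lowest share and WT the highest, and no 2 of the 4 intervals overlapped except those of cKO and Young. Levels between genes are compared per length, in RPKM (RPM divided by gene length). Hsp90ab1, the constitutive cytosolic Hsp90, had the highest level of all members in every library, with 86.7 RPKM in the library labelled cKO, 82.5 in WT, 54.8 in Old and 78.6 in Young. Hspa8, the constitutive Hsc70, was at 59.0, 67.1, 53.3 and 42.8 RPKM in the same order of libraries, and Hsp90aa1, the inducible cytosolic Hsp90, at 35.2, 52.1, 40.9 and 45.4 RPKM. These 3 genes took the first 3 places among the members in all 4 libraries.

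Cct2, a CCT subunit, was at 33.4 RPKM in the library labelled cKO, 31.0 in WT, 19.1 in Old and 31.1 in Young. Dnajb2, a J-protein that passes ubiquitinated clients on, was at 14.4, 13.8, 24.5 and 16.8 RPKM, and was thus the fourth member by level in Old and the fifth or sixth in the other libraries. Other Dnaj genes with high levels were Dnaja2 (12.5, 10.8, 7.44 and 12.0 RPKM in cKO, WT, Old and Young), Dnajc7 (11.2, 9.71, 9.04 and 11.3 RPKM), Dnajc8 (9.55, 10.8, 9.85 and 10.3 RPKM) and Dnajb6 (8.68, 9.49, 5.75 and 8.80 RPKM). Dnaja2 is a general Hsp70 partner, Dnajc7 binds both Hsp70 and Hsp90, Dnajc8 is found with the spliceosome and Dnajb6 suppresses aggregation. By contrast the stress-inducible Hsp70 genes Hspa1a and Hspa1b had at most 0.496 RPKM in any library. However, 66.3% of the 50-base windows of Hspa1a and 62.3% of those of Hspa1b occur in other genes, mostly in each other, and the sources used here do not say how shared reads were counted.

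**Figure D1:**
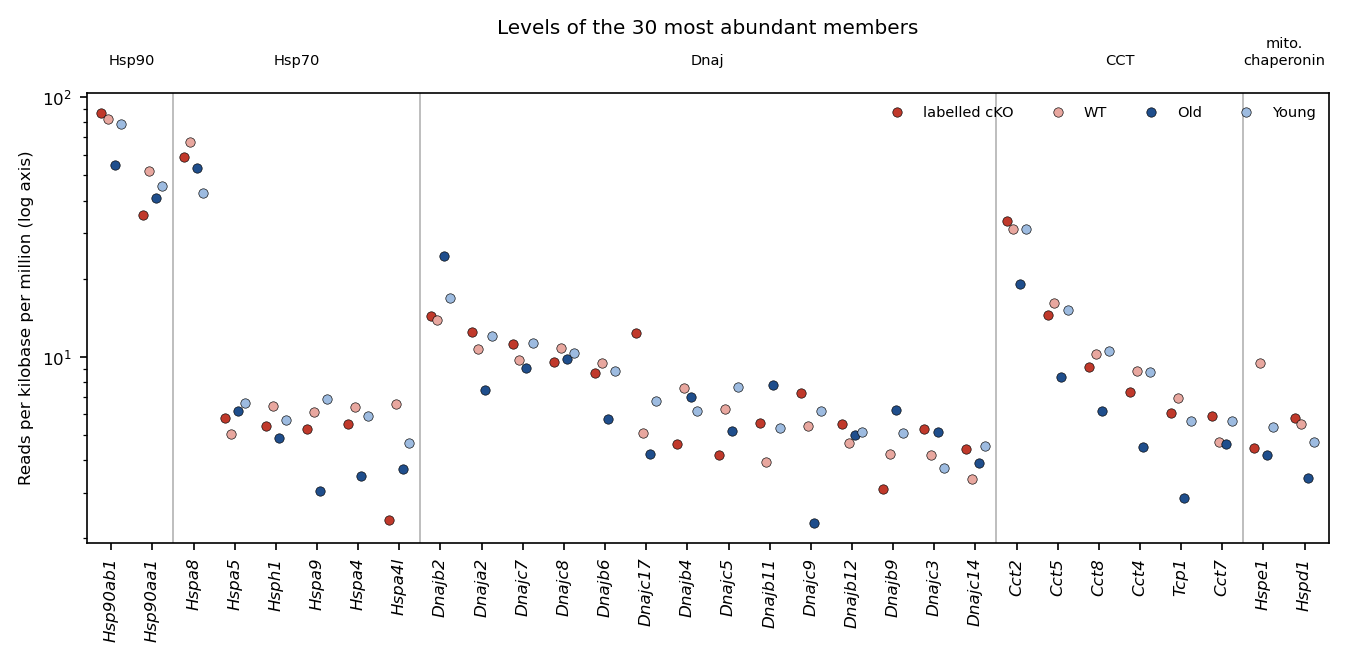
Levels of the 30 members with the highest mean level, as RPKM on a log axis and ordered by family, with 1 coloured point for each library (labelled cKO, WT, Old, Young). Hsp90ab1, Hspa8 and Hsp90aa1 lie above all other members in each library, and the Old point of Cct2 (19.1 RPKM) lies below those of the other libraries.

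Promoter windows were read from RefSeq for the mouse assembly GRCm38.p6, from 250 bases before to 50 bases after the start of each gene. They were searched for 2 inverted GAA units of a heat shock element, spelled GAANNTTC or TTCNNGAA. A whole element was not asked for. Each spelling is its own reverse complement, so the search covers both strands, and neighbouring matches may overlap. A match was found for 16 of the 64 members with a window (25.0%), against 4587 of 27025 genes with a window (17.0%). The 16 were Cct2, Cct5, Dnaja1, Dnaja4, Dnajb4, Dnajb6, Dnajc10, Dnajc27, Hspa1a, Hspa1b, Hspb1, Hspb6, Hspb8, Hspd1, Hspe1 and Hsph1. Windows of Cct4, Dnajc11, Dnajc12, Dnajc18, Dnajc2, Dnajc30, Dnajc5, Hsp90aa1, Hsp90ab1, Hspa13, Hspa8 and Hspa9 were not used. A match is a description of these letters and not of a bound site.

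The windows of 6 members are printed 5′ to 3′ with the matches in capitals. Hspa4l (chr3:40745363-40745662, plus strand) and Hspa14 (chr2:3512765-3513064, minus strand) are shown because of their ratios, and neither window holds these letters. Among members with 100 reads or more in 1 of the 2 libraries, only Hspa4l had a whole interval beyond 2-fold in cKO over WT. In Old over Young only Hspa14 did. In Old over WT the members with as many reads that lay that far apart were Dnaja4 and Tcp1. Dnaja4 has 2 matches in 1 of its 2 windows, and Tcp1 has none. Members with fewer reads are not counted here. Cct2 (chr10:117063326-117063625, minus strand) and Cct5 (chr15:31601797-31602096, minus strand) are the CCT genes with a match, 1 each. The matches begin 42 and 34 bases before the start site of the printed window. Each of them also has a second window without a match, which is not shown. For Cct2 the printed window lies inside the listed gene (chr10:117051001-117063814), and the window that is not shown spans the listed 5′ end. The windows of Cct3, Cct6b, Cct7, Cct8 and Tcp1 hold no match. Hspe1 (chr1:55087898-55088197, plus strand) has 3 overlapping matches that form 1 run, and its window shares 285 bases with that of its neighbour Hspd1 on the other strand, so the same 3 matches serve both descriptions. Hspb1 (chr5:135887669-135887968, plus strand), the only small Hsp with more than 25 reads in any library, has 2 matches.
Hspa4l: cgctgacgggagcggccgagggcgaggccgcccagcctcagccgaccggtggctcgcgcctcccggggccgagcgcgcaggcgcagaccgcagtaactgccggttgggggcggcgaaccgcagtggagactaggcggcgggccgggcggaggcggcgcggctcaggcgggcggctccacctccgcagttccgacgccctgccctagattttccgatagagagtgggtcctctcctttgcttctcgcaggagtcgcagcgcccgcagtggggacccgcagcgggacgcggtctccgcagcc
Hspa14: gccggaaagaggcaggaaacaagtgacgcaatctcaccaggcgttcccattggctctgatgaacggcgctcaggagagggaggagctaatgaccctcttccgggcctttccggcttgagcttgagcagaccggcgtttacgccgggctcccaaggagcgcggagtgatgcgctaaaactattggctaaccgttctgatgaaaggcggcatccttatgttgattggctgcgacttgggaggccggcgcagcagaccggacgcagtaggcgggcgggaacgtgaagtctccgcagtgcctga
Cct2: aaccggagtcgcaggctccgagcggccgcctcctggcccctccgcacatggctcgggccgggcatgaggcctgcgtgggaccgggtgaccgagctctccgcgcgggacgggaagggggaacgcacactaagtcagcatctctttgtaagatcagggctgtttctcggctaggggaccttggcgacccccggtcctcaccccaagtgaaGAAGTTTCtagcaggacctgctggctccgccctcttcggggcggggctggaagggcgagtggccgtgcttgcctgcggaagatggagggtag
Cct5: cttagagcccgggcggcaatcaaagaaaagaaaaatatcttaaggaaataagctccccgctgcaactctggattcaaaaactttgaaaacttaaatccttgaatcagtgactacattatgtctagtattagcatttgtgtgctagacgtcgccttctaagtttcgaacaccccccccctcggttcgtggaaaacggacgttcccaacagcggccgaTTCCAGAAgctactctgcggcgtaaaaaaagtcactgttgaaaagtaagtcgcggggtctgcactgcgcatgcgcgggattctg
Hspe1: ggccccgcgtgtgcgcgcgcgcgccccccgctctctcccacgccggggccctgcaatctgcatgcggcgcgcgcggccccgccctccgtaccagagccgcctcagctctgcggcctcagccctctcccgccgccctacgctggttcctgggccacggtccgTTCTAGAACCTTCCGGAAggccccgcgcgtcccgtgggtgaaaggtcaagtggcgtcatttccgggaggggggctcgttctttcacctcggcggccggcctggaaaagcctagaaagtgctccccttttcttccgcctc
Hspb1: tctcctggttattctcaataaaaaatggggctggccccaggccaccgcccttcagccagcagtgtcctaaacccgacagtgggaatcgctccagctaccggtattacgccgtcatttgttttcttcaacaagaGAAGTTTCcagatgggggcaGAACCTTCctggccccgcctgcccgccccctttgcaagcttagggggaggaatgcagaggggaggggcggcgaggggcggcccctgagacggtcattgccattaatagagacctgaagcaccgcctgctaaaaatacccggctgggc

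The comparison of the library labelled cKO with WT asks how chaperone RNAs stand in platelets of the mice labelled cKO. The size rule used for rose and fell asks for 100 reads or more in 1 of the 2 libraries and for a 95% interval wholly beyond 2-fold. Of the 42 members with that many reads, 0 rose, 1 fell (Hspa4l) and 41 did neither. Over all 6273 genes with as many reads, 2.52% rose and 1.71% fell. With a bound of 1.5-fold, 3 members were higher (Dnaja4, Dnajc17 and Hspg2) and 4 lower (Hspa4l, Hspa13, Hspe1 and Dnajb4), against 7.24% and 6.28% of all genes. The members thus lay near the background. Erythroid markers were also higher in the library labelled cKO, at 16080 RPM against 8258 in WT, and their part in these ratios was not tested. The median log2 ratio was -0.03 for the 66 members with a sum of 20 reads or more in this pair, beside -0.01 over all protein-coding genes with as many.

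Among the Hsp70 genes, Hspa4l, a cytosolic member of the Hsp110 branch (mm10 chr3:40744495-40796103, plus strand), had 493 reads in the library labelled cKO, 1401 in WT, 808 in Old and 1000 in Young. The library labelled cKO was the lowest of the 4 and WT the highest. Hspa4l fell in the library labelled cKO to a ratio of 0.346 to WT (0.311 to 0.383). The authors' deposited table gives it an adjusted p of 0.0168, the only member under 0.05 in that table's comparison of these 2 libraries, where 2.05% of 16467 genes were higher and 1.74% lower at that threshold. That adjusted p comes from 1 library per group, so it does not measure the spread between pools of mice. The ratio of Hspa4l to Young, the other wild-type library of 3 months, was 0.541 (0.484 to 0.603). That ratio does not pass the size rule, and WT over Young was 1.53 (1.41 to 1.66). The other 2 genes of the branch, both nucleotide exchange factors of Hsp70, also lay below 1. Hspa4 had 540 reads in the library labelled cKO and 635 in WT (ratio 0.835, 0.744 to 0.939), and Hsph1 had 696 and 843 (0.811, 0.733 to 0.898). The branch as a whole had 1729 reads in the library labelled cKO and 2879 in WT, a ratio of summed reads of 0.590 (0.556 to 0.626), most of which is the difference in Hspa4l.

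Hspa13, a microsomal Hsp70 without a peptide-binding domain, had 160 reads in the library labelled cKO, 369 in WT, 476 in Old and 355 in Young. The library labelled cKO was the lowest, with a ratio to WT of 0.426 (0.352 to 0.514) and a ratio to Young of 0.494 (0.408 to 0.597). Both intervals reach into the 2-fold range, so neither ratio passes the size rule, and WT over Young was 1.14 (0.979 to 1.32). Hspa8 had 4494 reads in the library labelled cKO and 5189 in WT (0.851, 0.817 to 0.886). Hspa5, the endoplasmic reticulum (ER) Hsp70 known as BiP, had 436 and 384 (1.12, 0.970 to 1.28), and Hspa9, the mitochondrial Hsp70, had 366 and 435 (0.827, 0.717 to 0.952). Of the 12 Hsp70 genes with enough reads for the median 9 lay below a log2 ratio of 0, against 50.6% of all protein-coding genes, and their median was -0.27.

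Of the Hsp90 genes, Hsp90aa1 had 2450 reads in the library labelled cKO and 3682 in WT, a ratio of 0.654 (0.621 to 0.688). Hsp90ab1 had 4605 and 4449 (1.02, 0.976 to 1.06), and Hsp90b1, the ER form, had 211 and 212 (0.978, 0.804 to 1.19). The inducible cytosolic gene thus lay apart from the other two, although 47.5% of its 50-base windows are shared with other genes, chiefly with the copy Gm12346. With the reads of that copy added the ratio was 0.652. Against Young the ratio of Hsp90aa1 was 0.830 (0.788 to 0.875), nearer to 1.

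The CCT genes differed little between these libraries. Their summed reads were 4860 in the library labelled cKO and 4987 in WT, a ratio of 0.957 (0.920 to 0.996), and the ratios of the 7 genes with at least 100 reads ran between 0.807 for Cct4 and 1.22 for Cct7. Cct6a, outside the members, had 232 and 395 reads (0.577, 0.489 to 0.680). The mitochondrial chaperonin is built from the large subunit Hspd1 (Hsp60) and its lid Hspe1 (Hsp10), which lie head to head on chromosome 1. Hspd1 had 272 reads in the library labelled cKO and 262 in WT (1.02, 0.858 to 1.21), while Hspe1 had 116 and 250 (0.456, 0.363 to 0.570). For Hspe1 it was WT that stood apart: Old had 114 and Young 144 reads. WT over Young was 1.90 (1.54 to 2.35), and cKO over Young was 0.884 (0.686 to 1.14). Of the 50-base windows of Hspe1 22.8% occur in other genes.

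Among the Dnaj genes, Dnaja4, a cytosolic partner of Hsp70, had 124 reads in the library labelled cKO, 44 in WT, 158 in Old and 112 in Young. WT was the low library here, and cKO over WT was 2.77 (1.95 to 4.0) but cKO over Young 1.21 (0.933 to 1.58). Exons of Wdr61 on the opposite strand cover 44.0% of its exonic bases, and the sources used here do not say whether strand was used in counting. With the reads of both genes summed the ratio was 1.93 (1.49 to 2.51). Dnajc17, a J-protein of the splicing machinery, had 285 reads in the library labelled cKO, 120 in WT, 102 in Old and 161 in Young. Its level was highest in the library labelled cKO, with ratios of 2.33 (1.88 to 2.91) to WT and 1.94 (1.59 to 2.37) to Young. Neither ratio passes the size rule, and 18.7% of the 50-base windows of Dnajc17 occur in other genes.

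Dnajb4, a heat-inducible partner of Hsp70, had 716 reads in the library labelled cKO, 1193 in WT, 1138 in Old and 987 in Young, and its ratio to WT was 0.590 (0.537 to 0.647). Dnajc5, the cysteine string protein of secretory vesicles, had 515, 787, 664 and 969 reads in the same order and a ratio to WT of 0.643 (0.574 to 0.719). In both genes the library labelled cKO was the lowest of the 4, and the ratios to Young were 0.796 for Dnajb4 and 0.583 for Dnajc5. Over 34 Dnaj genes the median log2 ratio was -0.03, with 16 above 0 (49.4% of all protein-coding genes were) and 18 below. Hspg2, which encodes the basement-membrane proteoglycan perlecan and is no chaperone, had 233 reads in the library labelled cKO and 96 in WT (2.38, 1.87 to 3.06).

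**Figure D2:**
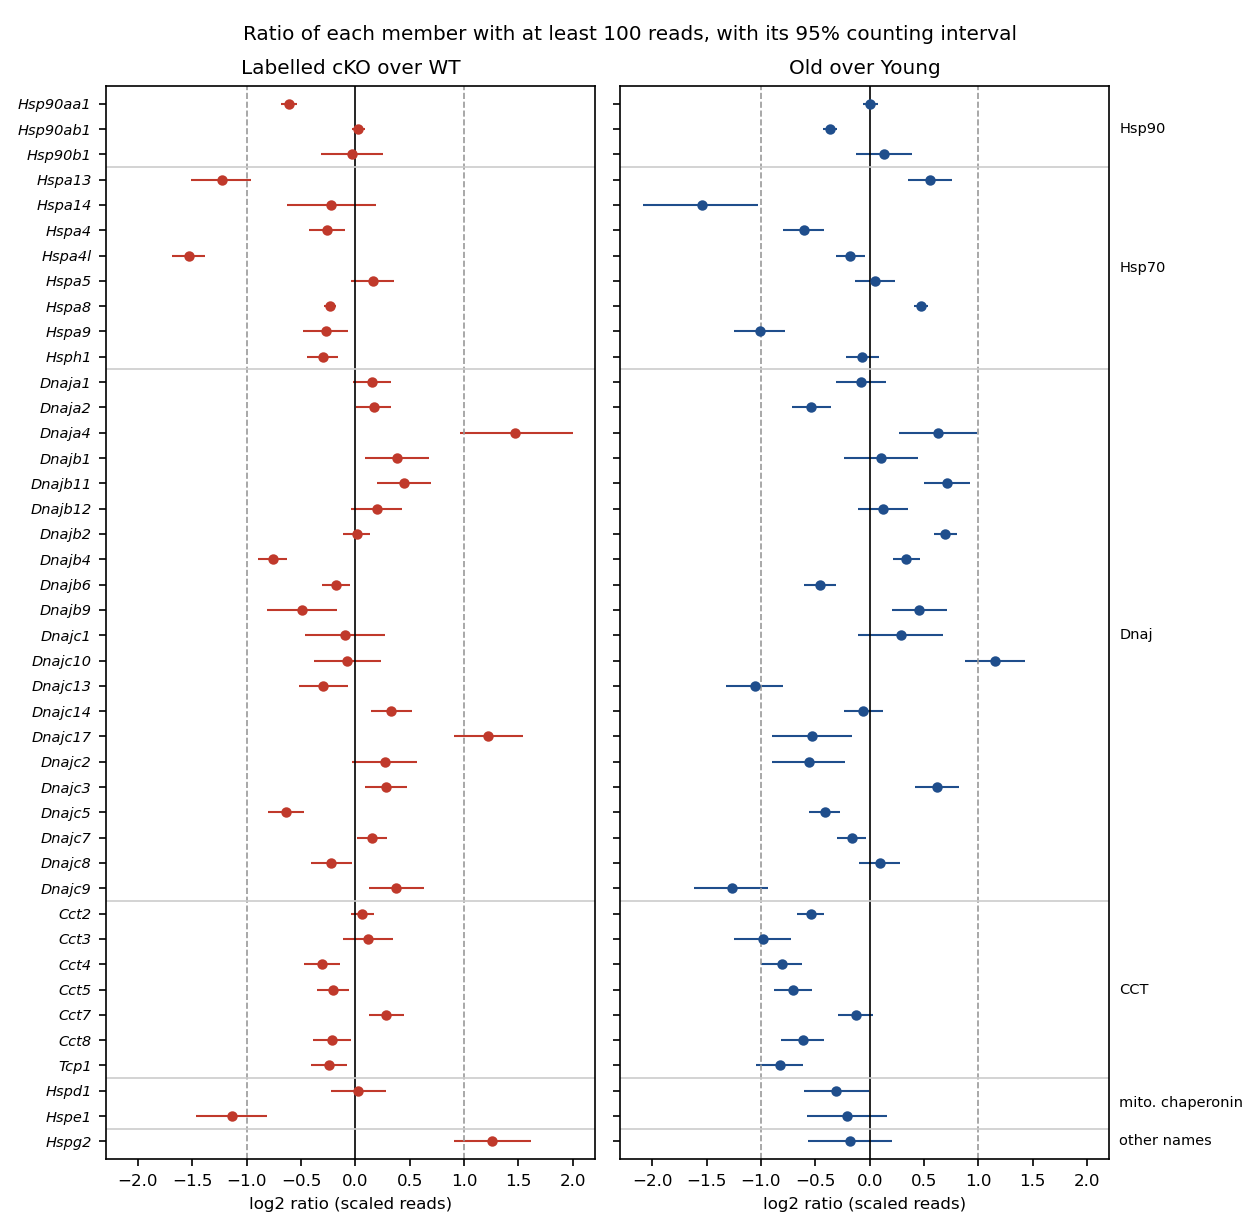
Log2 ratios of members with 100 reads or more in either pair of libraries, in rows by family, with cKO over WT in the left panel and Old over Young in the right one. Bars are exact 95% intervals of counting error and dashed lines mark 2-fold. Only Hspa4l in cKO over WT and Hspa14 in Old over Young have a whole interval beyond 2-fold.

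The comparison of Old with Young asks how chaperone RNAs stand in platelets of aged mice. Of the 42 members with enough reads for the size rule, 0 rose, 1 fell (Hspa14) and 41 did neither, where 4.26% of 6519 genes rose and 4.3% fell. With a bound of 1.5-fold, 2 members were higher (Dnajc10 and Dnajb2) and 7 lower (Hspa14, Hspa9, Cct3, Cct4, Tcp1, Dnajc9 and Dnajc13), against 10.4% and 12.9% of all genes. The median log2 ratio of 66 members was -0.19, beside -0.07 over all protein-coding genes. Scaling by total reads moved the median of all genes by -0.16, so each group is read against the median of all genes. The deposited p-values that follow come from 1 library per group and do not measure the spread between pools of mice. The authors' deposited table has 6 members higher and 9 lower at an adjusted p under 0.05, against 5.88% and 6.51% of 16180 genes, and of these members only Hspa14 and Dnajc9 had 100 reads or more in either library.

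The CCT genes were lower in Old as a group. All 8 measured subunits had a log2 ratio below 0, where 53.6% of all protein-coding genes did, and their median was -0.75. None of the 7 with at least 100 reads in this pair passed the size rule against Young. Cct3 had 174 reads in Old, 377 in Young, 328 in the library labelled cKO and 298 in WT, and its ratio of Old to Young was 0.505 (0.420 to 0.606). Old was the lowest library for this gene and did not come near the other 3. Tcp1, the alpha subunit, had 266 reads in Old, 517 in Young, 541 in the library labelled cKO and 628 in WT (Old over Young 0.563, 0.484 to 0.654). Its ratio of Old to WT was 0.424 (0.366 to 0.491), past the size rule, where 4.22% of 6328 genes fell. Exons of other genes, chiefly Acat3 and Mrpl18 on the opposite strand, cover 16.9% of its exonic bases.

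Cct4 had 348 reads in Old and 667 in Young (0.571, 0.50 to 0.651), Cct5 had 428 and 763 (0.614, 0.544 to 0.692), and Cct8 had 352 and 591 (0.652, 0.570 to 0.745). Cct2, the most abundant subunit, had 903 reads in Old and 1441 in Young (0.686, 0.631 to 0.746). Cct7 was the exception, with 580 reads in Old and 694 in Young (0.915, 0.818 to 1.02), an interval that includes 1. Cct6b, a subunit best known from testis, had 0 reads in Old and 24 in Young, 13 in the library labelled cKO and 25 in WT, and the exact interval puts it at least 5.50-fold lower in Old than in Young. Setting the 0 to a floor of 3 reads gives a 7.31-fold lower value. Cct6a, outside the members, had 175 reads in Old and 271 in Young (0.707, 0.581 to 0.858).

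Summed over the CCT members, Old had 3051 reads and Young 5074, a ratio of 0.658 (0.629 to 0.689). CCT took 0.0165% of the reads in Old, and between 0.0274% and 0.0280% in the other 3 libraries, whose intervals overlap. Old over WT was 0.613 (0.586 to 0.641), with 7 of 8 subunits below a log2 ratio of 0 (52.3% of all protein-coding genes) and Cct7 at 1.01. That comparison shares the Old library with Old over Young. WT over Young, between the 2 wild-type libraries of 3 months, was 1.07 (1.03 to 1.12). The CCT genes lie on chromosomes 3, 6, 10, 11, 15, 16 and 17. All 8 remained below 0 in Old over Young under the 3 other scalings tried, with medians between -0.73 and -0.98 where the medians of all genes ran between -0.04 and -0.30. B cell markers (86.2 RPM against 295 in Young) and erythroid markers (11230 against 21520) were also lower in Old. Neutrophil markers were higher (841 against 31.5), and the part of these cells in the CCT values was not tested.

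A group of 8 members that work inside mitochondria was lower in Old as well. This group of 8 (Hspa9, Hspd1, Hspe1, Dnaja3, Dnajc11, Dnajc15, Dnajc19 and Dnajc30) was put together after the values had been seen and is given as a description. It may leave out other J-proteins of mitochondria, so the count of 8 depends on this choice of members. Of J-proteins outside it, Dnajc28 was at 0.228 RPKM in Old and 0.108 in Young, and Dnajc4 at 0.605 and 1.90. All 8 had a log2 ratio below 0, where 53.6% of all protein-coding genes did, with a median of -0.71 beside -0.07 over all of these genes. They summed to 655 reads in Old and 1203 in Young (0.596, 0.541 to 0.656). Hspa9, which pulls proteins through the inner membrane, had 222 reads in Old, 489 in Young, 366 in the library labelled cKO and 435 in WT. Old was again the lowest library, and the ratio of Old to Young was 0.497 (0.422 to 0.584). Dnajc11, of the cristae junctions, had 32 reads in Old and 81 in Young (0.433, 0.278 to 0.659).

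Dnajc19, a J-protein of the import motor, had 9 reads in Old and 69 in Young, but 15 in both the library labelled cKO and WT, so for this gene Young was the library apart. Dnajc30 had 12 reads in Old, 53 in Young, 18 in the library labelled cKO and 20 in WT, the same order. Exons of Bud23 on the opposite strand cover 26.25% of the exonic bases of Dnajc30. Hspd1 had 167 reads in Old and 226 in Young (0.809, 0.658 to 0.993), and Hspe1 had 114 and 144 (0.867, 0.672 to 1.12). Against WT all 8 members lay below 0 too, where 52.3% of all protein-coding genes did, with summed reads of 655 in Old and 1202 in WT (0.546, 0.496 to 0.601). Old over WT uses the same Old library, so it is no separate check of this group. In WT over Young 4 of 8 lay above 0 and 4 below, where 48.6% of all protein-coding genes lay above and 51.4% below. Erythroid markers (11230 RPM against 21520 in Young) and B cell markers (86.2 against 295) were lower in Old and neutrophil markers higher (841 against 31.5), and their part in the mitochondrial values was not tested.

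Copies of Hspd1 were listed apart from it. Of the 50-base windows of Hspd1 42.1% occur in other genes, chiefly in Hspd1-ps3 (38.0%). Hspd1-ps4, listed on mm10 chromosome 4 (chr4:106136111-106137778) and outside the members, had 2422 reads in Old, 4998 in Young, 4550 in the library labelled cKO and 5377 in WT, many more than Hspd1 itself. Its ratio of Old to Young was 0.531 (0.505 to 0.557). Hspd1 and the copies Hspd1-ps3 and Hspd1-ps4 summed had a ratio of 0.544 (0.519 to 0.570) in Old over Young and 0.840 (0.809 to 0.873) in cKO over WT. Most of these summed reads (2616 in Old and 5266 in Young) were those of Hspd1-ps4, so the summed ratios say little of Hspd1 itself. Only 2.22% of the 50-base windows of Hspd1-ps4 occur in other genes, and the sources used here do not say how shared reads were counted.

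The members of the ER stood on the other side in Old. This group of 8 (Hspa5, Hspa13, Hsp90b1, Dnajb9, Dnajb11, Dnajc1, Dnajc3 and Dnajc10), likewise put together with the values seen, leaves out other J-proteins of the ER membrane. It had 8 of 8 log2 ratios above 0, where 46.4% of all protein-coding genes did, and a median of 0.50. With the membrane J-proteins Dnajb12, Dnajb14, Dnajc14, Dnajc16, Dnajc18 and Dnajc25 added, 10 of the 13 with enough reads lay above 0 and 3 below, and the median was 0.28, so the count of 8 depends on this choice of members. Dnajc10 (ERdj5), which reduces disulfide bonds of misfolded proteins, had 337 reads in Old, 166 in Young, 178 in the library labelled cKO and 184 in WT. Old lay well above the other 3 libraries, which were close together, and the ratio of Old to Young was 2.22 (1.84 to 2.69), short of the size rule. Dnajb11 (ERdj3), a BiP partner that binds nascent clients, had 465 reads in Old, 312 in Young, 318 in the library labelled cKO and 229 in WT, with ratios of Old to Young of 1.63 (1.41 to 1.89) and to WT of 2.03 (1.73 to 2.39).

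Dnajc3 (p58IPK), a BiP partner and inhibitor of the kinase PERK, had 488 reads in Old and 349 in Young (1.53, 1.33 to 1.76), and Hspa13 had 476 and 355 (1.47, 1.28 to 1.69). Dnajb9 (ERdj4) had 294 and 235 (1.37, 1.15 to 1.63), and Dnajc1 had 119 and 107 (1.22, 0.930 to 1.60). The abundant ER chaperones were nearer to 1: Hspa5 had 482 reads in Old and 511 in Young (1.03, 0.910 to 1.17), and Hsp90b1 had 254 in each (1.09, 0.917 to 1.31). Under scaling by total reads, with or without the top 10 genes, these 2 lay below 1 and the other 6 above it. Summed, the ER members had 2915 reads in Old and 2289 in Young (1.39, 1.32 to 1.47), and 2915 in Old and 2087 in WT (1.40, 1.32 to 1.48), with 7 of 8 above 0 against WT, where 47.7% of all protein-coding genes were. Both ratios use the same Old library, so the second is no separate check. WT over Young was 0.996 (0.938 to 1.06). Neutrophil markers were higher in Old, at 841 RPM against 31.5 in Young. Erythroid markers (11230 against 21520) and B cell markers (86.2 against 295) were lower, and the part of these cells in the ER values was not tested.

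**Figure D3:**
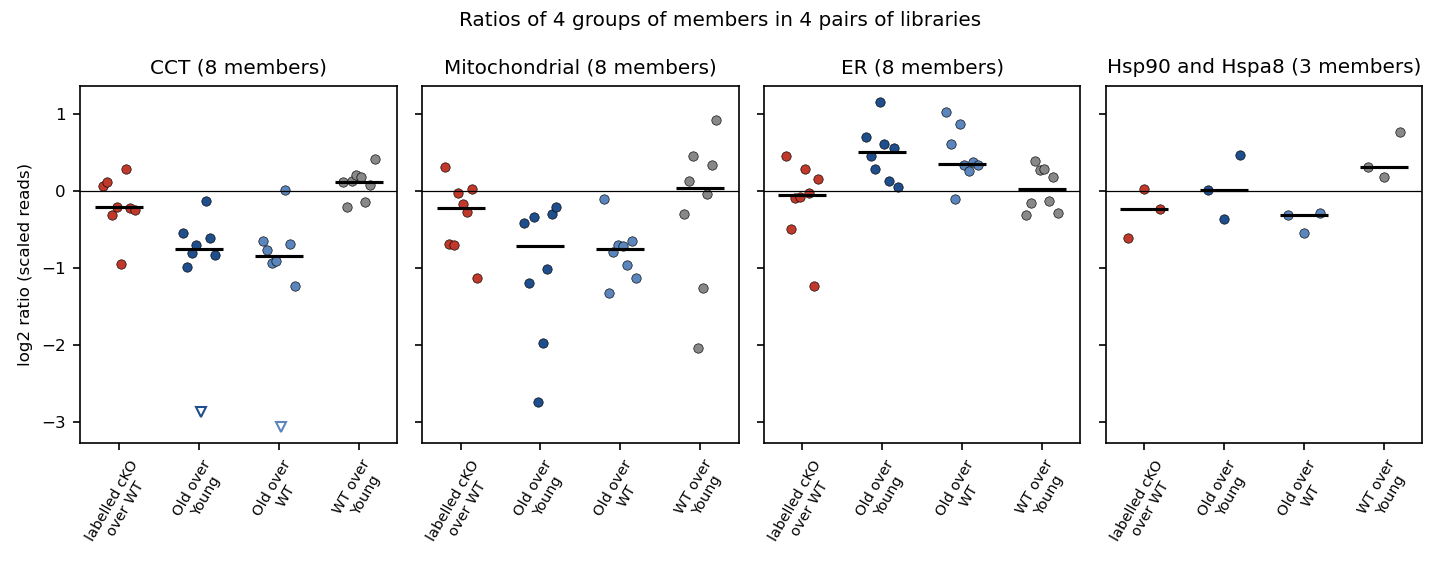
Log2 ratios in the CCT, mitochondrial and ER groups and of Hspa8 with the cytosolic Hsp90 genes, in 4 panels, for cKO over WT, Old over Young, Old over WT and WT over Young. Each point is a member with 20 reads or more in that pair, bars are medians, and open triangles are set with a floor of 3 reads. In Old over Young the CCT and mitochondrial points lie below 0 and the ER points above it.

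Of the cytosolic Hsp70 genes, Hspa14 (mm10 chr2:3488850-3512814, minus strand), the Hsp70 of the ribosome-associated complex, had 41 reads in Old, 131 in Young, 97 in the library labelled cKO and 111 in WT. Old was the lowest library and the other 3 lay together. Hspa14 fell in Old to a ratio of 0.343 to Young (0.235 to 0.490), and to WT it was 0.370 (0.252 to 0.534), short of the size rule. Against Young the ratio does not pass the rule under scaling by median of ratios. Exons of Gm45902 on the same strand cover 7.91% of its exonic bases, and with the reads of both genes summed the ratio was 0.421 (0.307 to 0.571), which does not pass. Dnajc2, the J-protein of the same ribosomal complex, had 122 reads in Old and 197 in Young (0.678, 0.537 to 0.854).

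Hspa8 had 4233 reads in Old, 3343 in Young, 4494 in the library labelled cKO and 5189 in WT. Young was the lowest library, so that Old over Young was 1.39 (1.32 to 1.45) and Old over WT 0.817 (0.785 to 0.851), and the 2 wild-type libraries of 3 months differed by more than either, with WT over Young at 1.70 (1.62 to 1.77). Of its 50-base windows 39.4% occur in other genes. Hspa4 had 356 reads in Old and 594 in Young (0.656, 0.574 to 0.750), Hsph1 had 655 and 751 (0.955, 0.859 to 1.06) and Hspa4l had 808 and 1000 (0.885, 0.805 to 0.972). Hspa1a and Hspa1b, near-identical neighbours on chromosome 17, had together 27 reads in Old, 0 in Young, 12 in the library labelled cKO and 25 in WT. Young was thus the library without reads of the inducible Hsp70 genes, and Old and WT differed little (1.08, 0.605 to 1.94).

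Hsp90ab1 had 3035 reads in Old, 4276 in Young, 4605 in the library labelled cKO and 4449 in WT. Old was the lowest and the other 3 were close, and the ratio of Old to Young was 0.777 (0.742 to 0.814). Hsp90aa1 had 2970 reads in Old and 3236 in Young (1.00, 0.956 to 1.06). Under scaling by total reads all 3 Hsp90 genes lay below 1 in Old over Young. Under the scaling used for the ratios above, their median and mean differed in sign (0.01 and -0.08 on the log2 scale).

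The remaining Dnaj genes lay on both sides of 1 in Old over Young. Dnajb2 had 1920 reads in Old, 1297 in Young, 1085 in the library labelled cKO and 1058 in WT, with ratios of 1.62 (1.51 to 1.74) to Young and 1.82 (1.69 to 1.96) to WT. Old was the highest library for this gene, which had the highest level per length of the Dnaj genes in every library. Dnajc9, a histone chaperone and J-protein, had 101 reads in Old, 266 in Young, 305 in the library labelled cKO and 231 in WT, and a ratio of Old to Young of 0.416 (0.327 to 0.525). Dnajc13, an endosomal J-protein known as RME-8, had 180 reads in Old, 410 in Young, 294 in the library labelled cKO and 354 in WT (0.481, 0.401 to 0.574). For both of these genes Old was the lowest of the 4 libraries.

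By subfamily, 8 of 10 Dnajb genes lay above a log2 ratio of 0 in Old over Young (median 0.36), as did 6 of 22 Dnajc genes (median -0.43) and 1 of 4 Dnaja genes (median -0.25), where 46.4% of all protein-coding genes did and their median was -0.07. Under scaling by total reads Dnajb1, Dnajb12 and Dnajc8 lay below 0. The Dnaja gene above 0 was Dnaja4, with 158 reads in Old and 112 in Young (1.54, 1.2 to 1.99), and it rose in Old over WT (3.6, 2.56 to 5.15), where 4.54% of genes rose and where WT was the low library. Dnaja2 had 409 reads in Old and 649 in Young (0.690, 0.608 to 0.782), Dnajb6 had 644 and 968 (0.728, 0.658 to 0.806), Dnajc7 had 812 and 998 (0.891, 0.811 to 0.978) and Dnajc8 had 465 and 478 (1.07, 0.936 to 1.21).

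Small Hsps were near the limit of detection. Hspb1 (Hsp25), which caps actin filaments and holds unfolded proteins, had 96 reads in Old, 37 in Young, 57 in the library labelled cKO and 47 in WT, and its ratio of Old to Young was 2.84 (1.93 to 4.27). With the reads of Hsp25-ps1, a copy that holds nearly all of the 50.1% of its 50-base windows found elsewhere, Old had 126 reads and Young 37 (3.73, 2.57 to 5.54). Hspb6, Hspb7, Hspb8 and Hspb9 had fewer than 25 reads in every library. Fewer than 20 reads in each library were also found for Dnajb3, Dnajb8, Dnajc12, Dnajc16, Dnajc25, Dnajc6, Hspa12a and, taken singly, Hspa1a.

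The other members with few reads gave wide intervals. Hspbp1, a nucleotide exchange factor of Hsp70, had 23 reads in Old, 81 in Young, 56 in the library labelled cKO and 53 in WT, so Old was the lowest and Young the highest library (Old over Young 0.311, 0.187 to 0.499). Dnajb13, a protein of sperm flagella, had 26 reads in Old, 2 in Young, 16 in the library labelled cKO and 3 in WT, so both libraries set against a wild type of 3 months held more (14.2, 3.56 to 124, and 5.24, 1.5 to 28.1). Exons of Ucp2 on the opposite strand cover 11.2% of the exonic bases of Dnajb13. Dnajc24, of the diphthamide pathway, had 24 reads in Old, 1 in Young, 8 in the library labelled cKO and 26 in WT. Hspbap1, a protein that binds Hspb1, had 34 reads in the library labelled cKO and 8 in WT (4.18, 1.90 to 10.4), and 31 in Old and 24 in Young. WT was the low library for this gene. Dnajb14, Dnajb5, Dnajc18, Dnajc21, Dnajc27, Dnajc28, Dnajc4, Hspa12b, Hspa2 and Hspb11 had fewer than 100 reads in every library, and in cKO over WT their ratios ran between 0.416 for Dnajc18 and 1.96 for Dnajc28.

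The last 4 Dnaj genes with more reads were Dnaja1, Dnajb1, Dnajb12 and Dnajc14. Dnaja1, a farnesylated partner of Hsc70, had 295 reads in Old, 342 in Young, 562 in the library labelled cKO and 497 in WT. The libraries labelled cKO and WT were both higher than Old and Young, and WT over Young was 1.59 (1.38 to 1.83). Dnajb1, the Hsp40 that is induced with Hsp70, counted 144 reads in Old against 147 in Young (1.07, 0.846 to 1.36), and 225 in the library labelled cKO and 170 in WT (1.30, 1.06 to 1.60). For Dnajb12 and Dnajc14 the ratios of Old to Young were 1.09 and 0.961, and those of cKO to WT 1.15 and 1.26.

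How far the members lay apart between libraries was similar to that of all genes. The median absolute log2 ratio of members was 0.29 in cKO over WT and 0.55 in Old over Young, beside 0.40 and 0.54 over all protein-coding genes. Between the 2 wild-type libraries of 3 months, WT over Young, it was 0.29 for members and 0.34 for all genes. Of 42 members with enough reads, 0 passed the size rule in WT over Young, where 0.439% of 6373 genes rose and 0.565% fell, and 0 in cKO over Young, where 2.07% of 6428 genes rose and 0.793% fell.

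The partners of these families were given as lists. Of the 36 listed co-chaperones of Hsp70 and Hsp90, 25 had 100 reads or more in cKO or WT and 26 in Old or Young. In either comparison 0 rose and 0 fell. Over all genes with as many reads, 2.52% rose and 1.71% fell in cKO over WT, and 4.26% and 4.3% in Old over Young. These shares stand beside each list below, so a count of 0 or 1 in lists of this size lies near the background. Stub1, the ubiquitin ligase CHIP that binds Hsp70 and Hsp90, had 133 reads in the library labelled cKO and 50 in WT (2.61, 1.88 to 3.69). For Stub1 cKO over Young was 1.46 (1.12 to 1.91) and WT over Young 0.546 (0.381 to 0.775). Stip1 (Hop), which links Hsp70 to Hsp90, had 1053 reads in Old and 619 in Young (1.86, 1.69 to 2.06), while St13 (Hip) had 240 and 475 (0.553, 0.472 to 0.647). Of the 16 prefoldin genes and CCT cofactors, which deliver actin and tubulin to CCT or take tubulin from it, 9 and 11 had at least 100 reads and 0 rose or fell. The median log2 ratio of that list was -0.08 in both comparisons, beside -0.75 for the CCT genes in Old over Young. Over all protein-coding genes it was -0.01 in cKO over WT and -0.07 in Old over Young. Tbca and Tbcb, which bind tubulin monomers, had ratios of 0.464 (0.376 to 0.571) and 0.459 (0.341 to 0.612) in cKO over WT. Their ratios in cKO over Young were 0.697 (0.558 to 0.868) and 0.875 (0.631 to 1.21), and in WT over Young 1.47 and 1.87.

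Of the ER chaperones and foldases outside the members, 11 and 10 had at least 100 reads and 0 rose or fell. The medians of that list were 0.01 in cKO over WT and 0.27 in Old over Young, beside -0.01 and -0.07 over all protein-coding genes. P4hb, a protein disulfide isomerase, had 1507 reads in Old and 789 in Young (2.09, 1.92 to 2.28), and Serp1, of the translocon, had 1554 and 3138 (0.542, 0.510 to 0.576), so this list held ratios on both sides of 1. Of the genes of mitochondrial import and quality control, 10 and 9 had at least 100 reads. In cKO over WT 0 rose and 0 fell, and the highest ratio among those with at least 100 reads was that of Timm44, of the import motor (2.65, 1.89 to 3.75). Tomm40, a pore of the outer membrane with fewer reads, had 74 in the library labelled cKO and 25 in WT (2.91, 1.83 to 4.78). In cKO over Young the ratios were 2.04 (1.52 to 2.76) for Timm44 and 1.29 (0.908 to 1.83) for Tomm40. WT over Young was 0.754 for Timm44 and 0.434 for Tomm40. In Old over Young Afg3l2, a protease of the inner membrane, rose with 3953 reads in Old and 1815 in Young (2.38, 2.25 to 2.52), and Phb2, a prohibitin, fell with 146 and 421 (0.380, 0.312 to 0.459). Over all genes with as many reads, 4.26% rose and 4.3% fell in that pair. The median of the mitochondrial list in Old over Young was -0.63 over 19 genes, beside -0.07 over all protein-coding genes. Hsf1, the main transcription factor of the heat shock response, had 100 reads in the library labelled cKO and 68 in WT (1.45, 1.05 to 2.00), and 35 in Old and 81 in Young (0.473, 0.309 to 0.712). Hsbp1, which binds Hsf1, had 4401 reads in the library labelled cKO and 5751 in WT (0.752, 0.723 to 0.782). In cKO over Young the ratio was 1.35 for Hsf1 and 0.975 (0.936 to 1.01) for Hsbp1.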

How the data were processed

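Platelet RNA was measured in 4 pooled libraries, 1 for each group. The submitters' processing notes name build mm10 and the tools featureCounts 1.5.0-p3, HISAT2 2.0.5, DESeq2 1.20.0 and CASAVA, without their roles or order. The sources used here do not state strand use or how shared reads were counted. For each gene the authors deposited a signal in each library, and from the values these are reads scaled within each table. Dividing by the step of each library gave whole reads, within 0.02 read, for 100% of values, and these replaced the counts that the design had assumed. The authors' deposited table also holds p-values, per the file headers, from a test that no source used here names, and the authors' log2 fold change. Since each group has 1 library, these p-values cannot measure a spread between pools of mice. A further 4 per-sample columns match no sample and were not used.

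Recovered reads were scaled by TMM (edgeR 4.0.16, R 4.3.3) for each pair of libraries. Ratios have exact 95% Clopper-Pearson intervals, and shares of reads have Wilson intervals. Intervals and floors (3 reads for a count of 0) cover counting error only, since amplified reads are not independent molecules. No count test could be fitted with 1 library per group. Medians use a pseudocount of 0.5 read and genes with at least 20 reads over both libraries. The 2 tables were scaled separately, so comparisons across them use the recovered reads of genes in both. The interval calculation was run on simulated reads with counting error only and the size ratio given. That checks the calculation and says nothing of the spread between real libraries.

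The members and lists were chosen with earlier results of these data known. Genes were named by a rule: members past the size rule, the 5 most abundant Hsp70 and Dnaj genes, all Hsp90, CCT and mitochondrial chaperonin genes, per family and comparison up to 2 highest and 2 lowest ratios, and up to 3 genes per list. Other genes with values (Hspb1, Hspa1a, Hspa1b, further ER and mitochondrial members, Dnajc2, copies) and both compartment groups were chosen after their values were seen. Shared sequence is the share of 50-base windows of a gene's transcripts found in another gene. Alternatives were other scalings, size rules, read minimums, pseudocounts, sets of members and the other wild-type library.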

Additional observations from a re-analysis of the deposited data

How the results depend on the processing

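The median log2 ratios of members, CCT, Dnaj, Hsp70, Hsp90, small Hsp, ER and mitochondrial members stayed, under every alternative tried, within the binomial 95% interval of the median over the genes of the set, which for sets of few genes is their whole range and is thus a loose bound. Medians near 0 could change sign or move far: in Old over Young those of Hsp70 (-0.01) and Hsp90 (0.01) were -0.17 and -0.15 under total reads, and -0.79 and -0.31 against WT. With the J-proteins of the ER membrane added, an alternative chosen after seeing the data, the ER median in Old over Young (0.50) was 0.28. Counts of members past the size rule were small and moved more. Shares over all genes moved with the bound too. In cKO over WT 2.52% rose and 1.71% fell, and 7.24% and 6.28% with a bound of 1.5-fold. In Old over Young 4.26% rose and 4.3% fell, and 10.4% and 12.9% with that bound. In cKO over Young 2.07% rose and 0.793% fell, and in Old over WT 4.54% and 4.22%. Shares under the other settings are not given here, so those counts are no result about the members. In cKO over WT the count of members that rose (0) was 1 under scaling by total reads and 3 with a bound of 1.5-fold. The count that fell (1, Hspa4l) was 4 with a bound of 1.5-fold, 0 with a bound of 4-fold, 2 with no read minimum and 0 against Young. In Old over Young the count that rose (0) was 2 with a bound of 1.5-fold, 4 with no read minimum and 1 against WT. The count that fell (1, Hspa14) was 2 under scaling by total reads, 0 under median-of-ratios size factors, 4 under total reads without the top 10 genes, 7 with a bound of 1.5-fold, 0 with a bound of 4-fold, 7 with no read minimum and 0 with a minimum of 300 reads. The median of the mitochondrial chaperonin in cKO over WT (-0.55) was 0.11 against Young. In Old over Young (-0.25) it was -0.41 under total reads, -0.48 without the top 10 genes and -0.89 against WT. The cause was not tested in any of these. Of 42 single members, 10 changed sign when the library labelled cKO was set against Young and 9 when Old was set against WT, and 6 did in Old over Young under total reads. No paired analysis was possible because each group has 1 library and the columns carry no replicate numbers, and for the same reason no replicate could be left out. Depth limits the members with fewer than 100 reads, whose intervals often span a 2-fold range or more.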
